A study of Mus musculus with 12 samples.

Results

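The proteasome is the barrel-shaped protease that destroys proteins tagged with ubiquitin. Its 20S core is built from rings of alpha subunits, which gate the entrance, and rings of beta subunits, of which Psmb5, Psmb6 and Psmb7 encode those that cut peptide bonds. A 19S cap recognises the tag, removes it and feeds the unfolded substrate into the core, dedicated chaperones assemble the particle, and other activators can replace the cap. In neurons the complex turns over synaptic proteins, and its genes are active in nearly all cell types. Acetylation of lysine 12 of histone H4 (H4K12ac) marks active gene starts and is laid down by acetyltransferases that include TIP60, the product of Kat5.

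The genes described here were all autosomal protein-coding genes of the GENCODE mouse annotation (GRCm38) whose symbol begins with Psma, Psmb, Psmc, Psmd, Psme, Psmf or Psmg, which gave 49 of 55413 annotated genes and of 20807 autosomal protein-coding genes. H4K12ac ChIP-Seq had been run on sorted neuronal nuclei from the whole hippocampus, giving 5 Tip60 cKO and 5 control libraries, labelled as C57BL/6J males aged 3 months. The cKO mice were Tip60 f/f and carried CaMKCreER T2, a tamoxifen-activated recombinase driven in postmitotic excitatory neurons of the forebrain, so neurons without that driver keep TIP60. The controls were Tip60 f/f littermates without the recombinase, both genotypes received tamoxifen, and tissue was taken on day 10 after the last injection. One pooled input per genotype served as the background of all 5 libraries of that genotype, so a difference between the inputs and a difference between the genotypes cannot be told apart. In such bulk nuclei, fewer nuclei that carry the mark and less of the mark per nucleus cannot be told apart either.

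The libraries held 22864189 to 37077725 tags in the cKO group and 27418740 to 37923809 in the control group, and gave 64245 to 135494 and 93575 to 136409 peaks. The peaks covered 22.6 to 59.5 Mb and 39.6 to 65.5 Mb, and cKO replicate 5 had the fewest tags, peaks and covered bases. All 5 pan-neuronal marker genes had a peak in all 10 lists. Of 6 microglial markers 5 had none in any list and P2ry12 had one in 5, and of 6 oligodendrocyte markers 5 had none and Mbp had one in all 10. The P2ry12 peaks were in 4 control lists and 1 cKO list. Of 5 astrocyte markers Gfap had a peak in 9 lists, Gja1 and Slc1a3 in 3 and the others in none, and of 4 endothelial markers Kdr had one in 4 lists, Flt1 and Cldn5 in 1 and Pecam1 in none. Of the 3 markers of inhibitory neurons none had a peak in all 10 lists and Gad1 had none at all. The inhibitory marker peaks were all in cKO, with Slc32a1 in 2 lists and Gad2 in 1. At Kat5 itself the rank score of the start window was 94.8 ± 5.07 (SD, n = 5) in cKO and 97.6 ± 2.08 (SD, n = 5) in control, and the deletion inside the gene was not measured by these lists.

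Each gene was scored in a window of 2 kb on either side of its annotated 5′ end (TSS). The rank score takes the fold enrichment over input of the strongest peak there and places it, as a percentile, in the series of such values from every annotated gene of the same library, with 0 where a window held no peak. The coverage is the percentage of the window that lies inside peaks. Most proteasome genes carried H4K12ac at their start in every library: 34 of 49 had a peak in all 10 lists, or 69.4%, beside 46.2% of autosomal protein-coding genes, and 4 had none in any list, namely Psma6, Psma8, Psmd5 and Psme2b. The mean rank score of the 49 genes was 72.6 ± 2.87 (SD, n = 5) in control and 70.2 ± 2.55 (SD, n = 5) in cKO. The same mean over all autosomal protein-coding genes was 50.3 ± 0.532 in control and 48.7 ± 2.11 in cKO, with the windows without a peak counted as 0. Among genes with a peak in all 10 lists the median control rank score was 87.9 for the members and 88.2 for protein-coding genes.

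**Figure D1:**
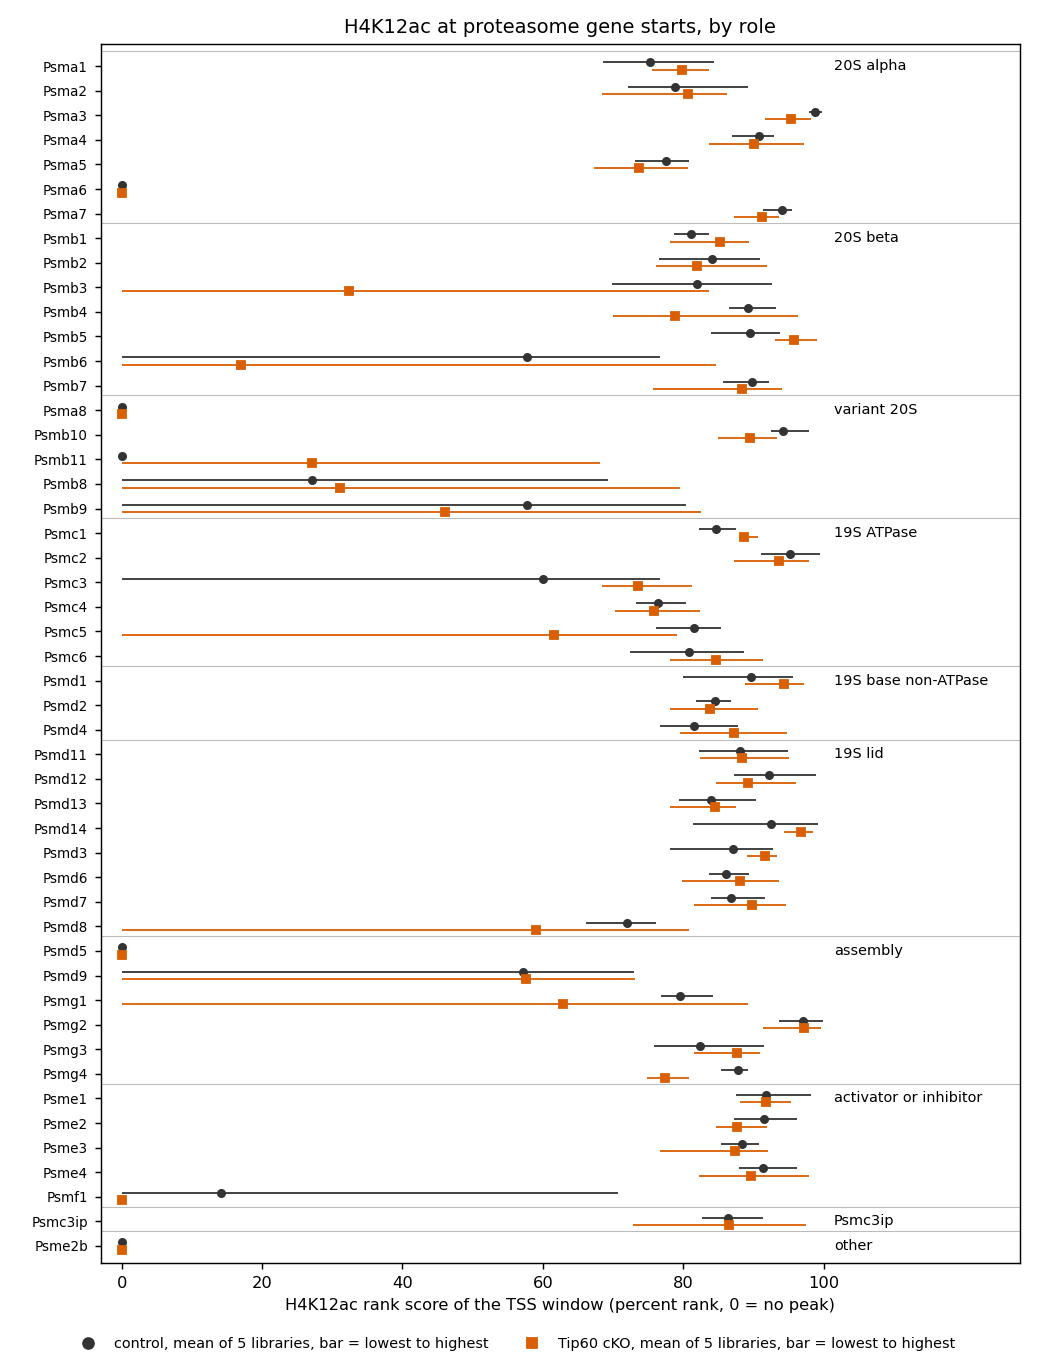
Rank score (percent rank, horizontal axis) of the 49 genes, grouped by role, with the mean of 5 control libraries as circles, the mean of 5 Tip60 cKO libraries as squares and bars from the lowest to the highest library. Most genes lie above 70, long bars reach 0 where a library had no peak, and the control and cKO ranges of Psmg4 and Psmc1 do not overlap.

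Among the alpha ring genes, Psma3 stood highest of all 49 genes, with control rank scores of 99.3, 97.9, 98.6, 99.9 and 98.4. In cKO it had 91.6, 98.1, 98.2, 95.1 and 93.8, so the rank scores overlapped near the top of their scale. Its fold enrichment and pileup are given with the comparison of the genotypes. Psma7 followed with 94.1 ± 1.67 and Psma4 with 90.8 ± 2.24 in control (SD, n = 5), while Psma1, Psma2 and Psma5 lay between 75.3 and 78.8, within each other's spread. Psma6 had no peak at its annotated 5′ end. A protein-coding transcript of it starts 14553 bp downstream, and there every library had a peak, scoring 86.6 ± 5.29 in control and 93.2 ± 3.52 in cKO (SD, n = 5).

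In the beta ring, the control means of Psmb7, Psmb5 and Psmb4 were 89.8, 89.6 and 89.3 and did not separate. These encode the trypsin-like subunit, the chymotrypsin-like subunit that proteasome inhibitor drugs target, and a structural subunit. Psmb2, Psmb3 and Psmb1 lay at 84.1, 82.0 and 81.1. Psmb6, the caspase-like subunit, was lowest at 57.8 ± 32.4 (SD, n = 5). Control replicate 4 had no peak there, and the other 4 controls lay between 69.6 and 76.8, also below the mean of Psmb1.

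Among the 5 core subunit variants made in special tissues or under interferon, the number of lists with a peak ran from 0 to 10. Psma8, the alpha subunit of testis, had no peak in any list, and Psmb11, the beta subunit of thymic epithelium, had none at its 5′ end in control and a peak in cKO replicates 1 and 2 only. Its protein-coding transcript starts 3877 bp further in, where all 10 lists had a peak and the rank score was 74.4 ± 2.62 in control and 78.1 ± 6.66 in cKO (SD, n = 5). Of the interferon-induced immunoproteasome genes, Psmb8 had a peak in 4 lists and Psmb9 in 7. Psmb9 starts 211 bp from Tap1 on the opposite strand, so peaks in that window belong to both genes. Psmb10, the third of that set, had a peak in all 10 lists at 94.2 ± 2.13 in control and 89.5 ± 3.14 in cKO (SD, n = 5).

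The 8 genes of the 19S lid had control means from 72.0 for Psmd8 to 92.5 for Psmd14, the deubiquitinase that strips the tag from substrates, and 7 of them had a peak in all 10 lists. The 3 non-ATPase genes of the base ran from 81.6 for Psmd4, a ubiquitin receptor, through 84.5 for Psmd2 to 89.6 for Psmd1, both scaffold subunits. The 6 ATPase genes, whose products form the ring that unfolds substrates, ran from 60.03 for Psmc3 to 95.3 for Psmc2. Psmc3 had 76.7, 74.6, 74.4 and 74.5 in control replicates 1, 2, 3 and 5 and no peak in replicate 4, so its low mean rests on that library. Psmc5 had no peak in cKO replicate 5 and otherwise 72.6 to 79.1 in cKO beside 76.1 to 85.4 in control.

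Among the assembly chaperones, Psmg2 was highest with a control mean of 97.1 ± 2.25 (SD, n = 5), the second of all 49 genes, and its start lies 263 bp from that of Cep76. Psmg1 was at 79.5 ± 2.87 in control, with no peak in cKO replicate 5. Psmd5, a chaperone of the base, had no peak at its 5′ end, but at the start of its protein-coding transcript 4006 bp further in it had 85.9 ± 2.304 in control and 85.7 ± 6.58 in cKO (SD, n = 5). For Psmd9 the 5′ end had a peak in 8 lists. A transcript not labelled protein-coding starts 58777 bp downstream and had one in all 10, with 83.7 ± 8.94 in control and 79.4 ± 5.84 in cKO. At the start of a protein-coding transcript of Psmd9 65181 bp downstream, 5 control lists and 1 cKO list had a peak. The rank score there was 75.3 ± 2.66 in control and 14.2 ± 31.9 in cKO (SD, n = 5), a difference that was not tested. The activator genes Psme1, Psme2, Psme3 and Psme4 had control means of 91.8, 91.5, 88.3 and 91.4. Psmf1, an inhibitor of the core, had a peak in control replicate 4 only, while the start of a protein-coding transcript 2876 bp further in had one in all 10 lists, with 81.2 ± 4.86 in control and 87.2 ± 6.56 in cKO. Psmc3ip, a meiotic recombination factor named for its binding to Psmc3 and not a subunit, had 86.4 ± 3.47 in control and 86.6 ± 12.3 in cKO (SD, n = 5). Psme2b had no peak in any list.

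The marked bases had a common shape. In control, the share of the 49 genes whose bases lay inside a peak rose to 47.0% ± 4.85 (SD, n = 5) at -275 bp from the TSS, fell to 20.4% ± 5.04 at -25 bp, and rose again to 67.4% ± 3.54 at 175 bp downstream. In cKO the same points were 37.2% ± 11.01 at -225 bp, 17.1% ± 6.55 at -25 bp and 63.0% ± 7.67 at 275 bp downstream. Between 100 and 500 bp downstream the members' cover was 64.2% ± 4.52 in control, above the 43.6% ± 1.96 of autosomal protein-coding genes. Per gene with a peak the values were close, at 75.2% ± 3.41 and 73.55% ± 2.45, since 85.3% of the members and 59.2% of protein-coding genes had a peak. Between 1000 and 1500 bp downstream the order was the other way, with 5.89% ± 1.66 for the members and 10.6% ± 1.52 for protein-coding genes, or 6.86% ± 1.79 and 17.9% ± 2.39 per gene with a peak. The median length of the strongest peak in a marked window was 555.3 bp ± 64.8 for the members and 658 bp ± 61.1 for protein-coding genes in control, and 460.1 bp ± 69.0 and 518.2 bp ± 88.4 in cKO (SD, n = 5 each).

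**Figure D2:**
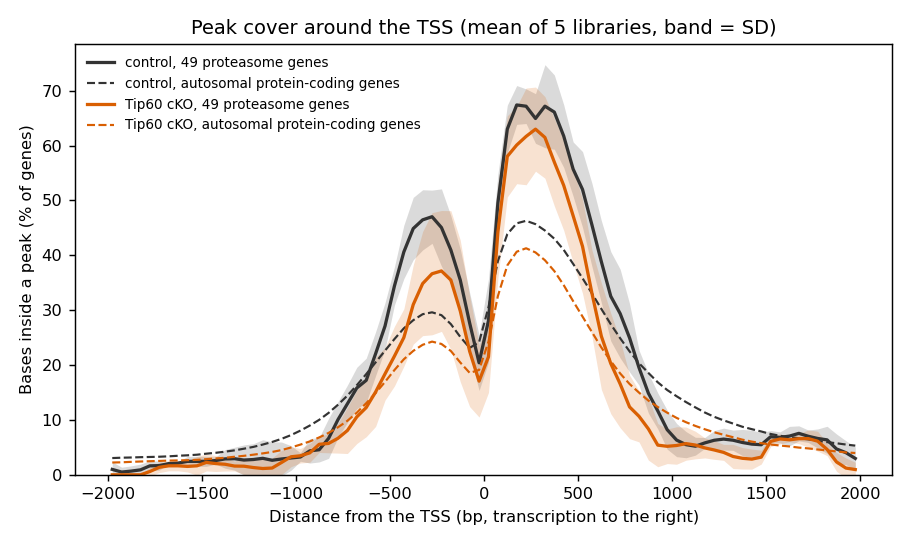
Percentage of genes whose bases lie inside a peak (vertical axis) against distance from the TSS in bp, in bins of 50 bp, for the 49 proteasome genes (solid lines, band = SD of 5 libraries) and autosomal protein-coding genes (dashed lines), control in dark grey and Tip60 cKO in orange. The proteasome genes show a dip at the TSS between an upstream shoulder and a higher downstream one, and the cKO line runs below the control line at both shoulders, with bands that overlap except in the bins at -475, -425, -375, 775 and 825 bp.

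Another protein-coding start lay within 2 kb for 12 of 49 genes, or 24.5%, beside 14.6% of autosomal protein-coding genes. They include Psmc2 and Dnajc2 at 32 bp, Psma2 and Mrpl32 at 75 bp, Psmc5 and Ftsj3 at 75 bp, Psma7 and Ss18l1 at 76 bp, and Psmb1 and Tbp at 137 bp, each pair on opposite strands. A peak in such a window cannot be assigned to one of the pair.

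RefSeq promoters (GRCm38.p6, 250 bases before to 50 after the start) were matched by symbol for 41 of the 49 genes. Psma8, Psmb1, Psmb2, Psmb7, Psmc3, Psmd3, Psmd7 and Psmg2 were not matched. The RefSeq start lay inside the scored window for 37 of the 41, and outside it for Psmb11, Psmd5, Psmd9 and Psmf1, whose rank scores at the 5′ end are therefore not levels at these promoters. The median GC content was 57.3% in the members and in autosomal protein-coding genes, and the median ratio of observed to expected CpG was 0.763 in the members and 0.610 in protein-coding genes. Both strands were searched for 8 motifs. The ETS core CCGGAA was in 19 of 41 promoters (46.3%), beside 14.9% of the 32851 promoters listed and 19.9% of those of 15687 autosomal protein-coding genes. TGACG, the core of the cyclic AMP response element (CRE), was in 18 (43.9%, beside 20.8% and 24.6%), the Sp1 box GGGCGG in 22 (53.7%, beside 35.7% and 48.6%) and the nuclear respiratory factor core GCGCNTGCG in 7 (17.1%, beside 6.31% and 9.46%). The YY1 core ATGGCGG was in 4 (9.76%, beside 4.05% and 5.597%), the CCAAT box in 14 (34.1%, beside 37.4% and 38.4%) and TATAAA in 4 (9.76%, beside 13.6% and 12.9%). The antioxidant response element core TGACNNNGC, to which the proteasome gene activator encoded by Nfe2l1 binds, was in 6 (14.6%, beside 12.4% and 13.5%), or Psmb5, Psmb6, Psmc6, Psmd9, Psmd12 and Psme4. A TGACG match can lie inside a TGACNNNGC match.

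**Figure D3:**
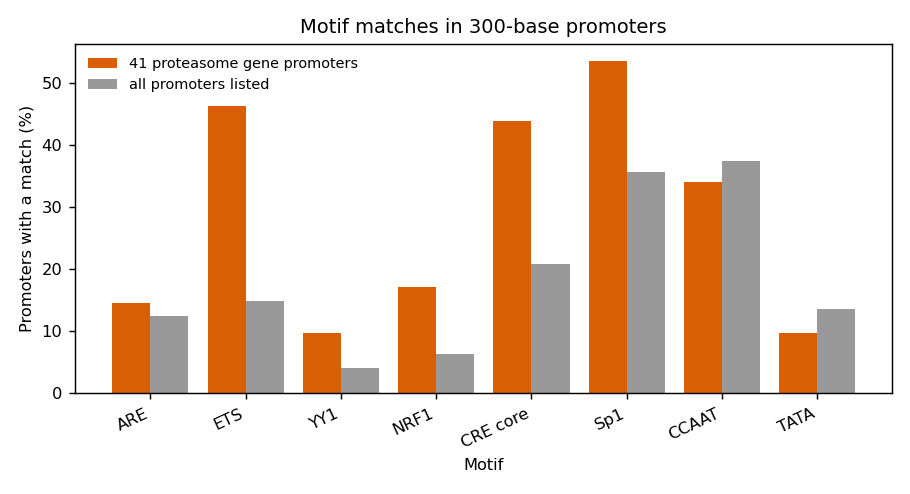
Percentage of promoters with at least 1 match (vertical axis) for each of 8 motifs, in the 41 matched proteasome gene promoters (orange) and in all promoters listed (grey). The ETS, CRE core, Sp1, NRF1, YY1 and ARE bars are higher in the proteasome genes, with the widest gap at the ETS core (46.3% and 14.9%).

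The promoters of Psmb3, Psmg4, Psmc1 and Psmb5 are printed because their H4K12ac values by library are compared between the genotypes below, with that of Psma7, which held the most motif matches (9). Sequences are written in the direction of transcription, with each match to any of the 8 motifs in capitals, and a position gives the first printed base of a match, counted from the RefSeq start with -1 for the base before it and 1 for the first transcribed base.
Psmb3 (chr11:97703184-97703483, plus strand): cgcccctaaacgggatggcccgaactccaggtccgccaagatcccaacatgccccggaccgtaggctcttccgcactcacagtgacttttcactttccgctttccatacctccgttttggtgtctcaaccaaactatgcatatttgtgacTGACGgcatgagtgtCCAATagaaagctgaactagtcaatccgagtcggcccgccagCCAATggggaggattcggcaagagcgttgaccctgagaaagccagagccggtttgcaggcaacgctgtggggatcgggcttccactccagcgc
Psmg4 (chr13:34162714-34163013, plus strand): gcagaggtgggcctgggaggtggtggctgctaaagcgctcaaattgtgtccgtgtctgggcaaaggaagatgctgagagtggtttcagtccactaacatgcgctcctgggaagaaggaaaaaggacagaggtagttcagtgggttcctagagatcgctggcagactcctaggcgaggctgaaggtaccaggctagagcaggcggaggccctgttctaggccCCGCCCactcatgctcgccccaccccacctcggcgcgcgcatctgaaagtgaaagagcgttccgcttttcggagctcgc
Psmc1 (chr12:100109952-100110251, plus strand): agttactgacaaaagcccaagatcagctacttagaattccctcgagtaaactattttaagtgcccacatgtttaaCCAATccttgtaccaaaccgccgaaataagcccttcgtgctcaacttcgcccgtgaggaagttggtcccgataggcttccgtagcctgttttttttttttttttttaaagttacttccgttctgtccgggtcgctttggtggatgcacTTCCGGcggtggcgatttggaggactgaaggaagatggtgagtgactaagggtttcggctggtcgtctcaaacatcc
Psmb5 (chr14:54617946-54618245, minus strand): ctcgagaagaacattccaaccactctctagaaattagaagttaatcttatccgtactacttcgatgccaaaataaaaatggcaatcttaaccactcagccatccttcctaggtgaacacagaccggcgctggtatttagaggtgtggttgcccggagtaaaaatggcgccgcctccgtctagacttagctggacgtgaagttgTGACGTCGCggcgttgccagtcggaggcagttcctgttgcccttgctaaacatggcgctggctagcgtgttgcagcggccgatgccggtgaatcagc
Psma7 (chr2:180042415-180042714, minus strand): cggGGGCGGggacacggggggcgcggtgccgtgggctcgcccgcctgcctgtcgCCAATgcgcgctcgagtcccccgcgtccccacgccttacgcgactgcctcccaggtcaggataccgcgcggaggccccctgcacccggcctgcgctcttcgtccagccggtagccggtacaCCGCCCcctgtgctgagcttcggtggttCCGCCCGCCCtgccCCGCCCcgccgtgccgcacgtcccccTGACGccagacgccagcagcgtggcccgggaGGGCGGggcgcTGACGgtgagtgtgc

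In Psmb3 the capitals mark a CRE core at position -100 and a CCAAT box at -85 and at -43, and no ETS core was found. Psmg4 held a single match, an Sp1 box read on the opposite strand at -29. Psmc1 had an ETS core on the opposite strand at -27 and a CCAAT box at -175. In Psmb5 the antioxidant response element core at -47 also holds a CRE core, and Psma7 had an Sp1 box at 6 places, a CRE core at -7 and 36, and a CCAAT box at -196.

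The strength of the strongest peak was compared between genotypes by limma on rank scores, over the 21672 genes marked in 2 or more lists. Of the 49 genes 44 were tested, and Psma6, Psma8, Psmd5, Psme2b and Psmf1 were not. None of the 44 passed a Benjamini-Hochberg adjusted p of 0.05, where 34 of all genes tested were lower in cKO (0.157%) and 17 higher (0.0784%). At an unadjusted p under 0.05 there were 5 of 44, 3 lower and 2 higher, or 11.4% beside 11.8% of all genes tested. Rank scores were lower in cKO for 22 of the 44 and higher for 22, with a median difference of -0.29, beside 55.6% lower and a median of -0.69 over all genes tested. By role, 5 of 7 beta ring genes and 4 of 6 tested alpha ring genes were lower, and 6 of 8 lid genes were higher.

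Psmg4, whose product is an assembly chaperone of the alpha ring (chr13:34162964-34178173, plus strand), had the smallest p of the 44 for strength. Its rank scores were 88.5, 85.5, 88.0, 87.7 and 89.2 in control and 77.3, 75.8, 74.9, 80.9 and 78.2 in cKO. The lowest control library stood above the highest cKO library, and Psmg4 was the only member of which this held in that direction, beside 1.62% of all genes tested. The difference of -10.4 ± 1.75 (SE) had a limma adjusted p of 0.0718. In fold enrichment over input the strongest peak was at 4.15 ± 0.369 in cKO and 6.15 ± 0.321 in control, and its pileup at 23.0 ± 5.24 and 31.4 ± 4.39 tags (SD, n = 5). The local background under that peak was 1.43 ± 0.299 times the genome-wide level in cKO and 1.18 ± 0.0633 times in control, and ranked by pileup instead of fold enrichment the difference was -2.77 (adjusted p = 0.705). In all 5 control libraries and in cKO replicates 1 to 4 a peak spanned the start, beginning between -608 and -486 bp from it, and in cKO replicate 5 the only peak began 386 bp downstream.

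Psmc1, an ATPase of the 19S ring whose tail opens the core gate (chr12:100110154-100123405, plus strand), went the other way. It had 87.5, 82.2, 84.2, 82.7 and 86.7 in control and 88.1, 88.2, 88.0, 90.7 and 88.4 in cKO, so that every cKO library stood above every control library, beside 1.93% of all genes tested. The difference was 4.03 ± 1.72 (SE; limma adjusted p = 0.405). Its local background was 1.04 ± 0.0193 times the genome-wide level in cKO and 1.32 ± 0.0186 times in control, the pileup was 24.4 ± 4.51 tags in cKO and 31.4 ± 4.98 in control, and ranked by pileup the difference was -1.14. Psmb5 had a difference of 6.27 (limma adjusted p = 0.347), from 91.7, 88.9, 93.9, 84.0 and 89.5 in control and 95.6, 93.1, 97.8, 93.7 and 99.1 in cKO. Those ranges overlapped by control replicate 3. Psmb10 was at a difference of -4.70 (limma adjusted p = 0.419). In fold enrichment itself, which was lower in cKO over all protein-coding genes too (median 5.23 ± 0.138 and 5.74 ± 0.163 in control), 4 of 44 members (Psma3, Psma7, Psmb10 and Psmg4) lay lower in cKO without overlap, beside 5.43% of all genes tested, and none lay higher (0.632%). For Psma3 it was 6.05 to 8.27 in cKO and 8.74 to 11.2 in control, and its pileup was 21 to 38 and 43 to 49 tags, which made it the 1 member without overlap in pileup, beside 3.05% of all genes tested, and none was higher (0.0323%). For Psmb10 fold enrichment was 5.22 to 6.57 in cKO and 7.15 to 8.63 in control, and the pileups overlapped. At Psmb4 the rank score was 78.8 in cKO and 89.3 in control with overlapping ranges, and the local background was 1.91 ± 0.481 times the genome-wide level in cKO and 1.11 ± 0.0773 in control. The part of the input in these differences was not tested.

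**Figure D4:**
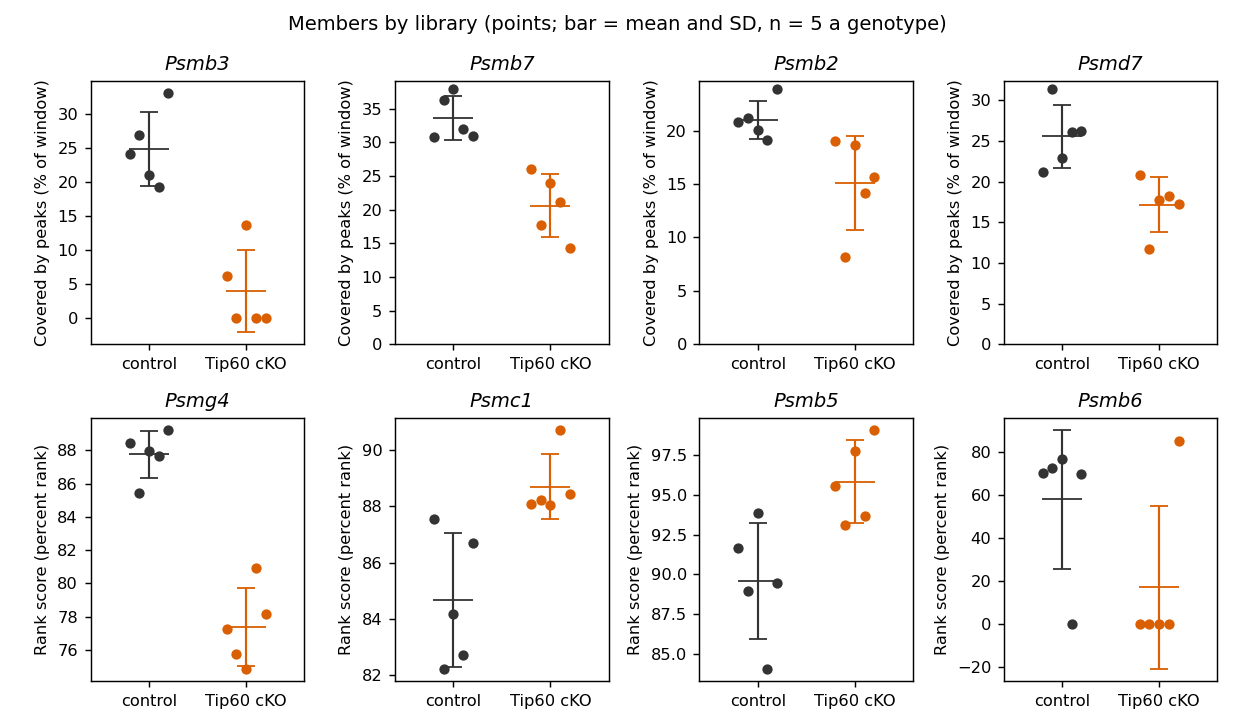
Values per library (points) with the mean and SD of 5 libraries a genotype, as coverage (percentage of the window) for Psmb3, Psmb7, Psmb2 and Psmd7 and as rank score (percent rank) for Psmg4, Psmc1, Psmb5 and Psmb6. Control and cKO points do not overlap for Psmb3, Psmb7, Psmb2, Psmd7, Psmg4 and Psmc1, and overlap for Psmb5 and Psmb6.

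The width of the mark differed in 1 direction. Coverage was lower in cKO for 42 of the 44 tested members, and for all 34 of those with a peak in all 10 lists. That direction was general: 81.0% of all 21672 genes tested and 84.5% of the autosomal protein-coding ones were lower, and 89.8% of protein-coding genes with a peak in all 10 lists. The median difference was -3.82 percentage points of the window for the members, -4.01 for all genes tested and -4.71 for autosomal protein-coding genes. The mean coverage of the 49 genes was 19.2% ± 2.54 in control and 15.0% ± 3.21 in cKO (SD, n = 5), which was 1.16 ± 0.0553 times that of autosomal protein-coding genes in control and 1.15 ± 0.0306 times in cKO. By library it was 20.3, 20.3, 18.8, 15.1 and 21.7% in control and 18.9, 15.0, 16.4, 14.8 and 10.1% in cKO. The lowest control library, replicate 4, and the lowest cKO library, replicate 5, were also those of their genotype with the fewest tags. Without cKO replicate 5, 38 of 44 members were lower, beside 72.7% of all genes tested. Among the marker genes of other cell types, the astrocyte gene Gfap had a coverage of 4.60% ± 3.36 in cKO and 19.6% ± 4.87 in control (SD, n = 5; limma adjusted p = 0.0287), Slc1a3 had 1.68% and 2.61%, Gja1 had 2.82% and 2.18%, and Aqp4 and Aldh1l1 had none. The endothelial genes Cldn5 and Flt1 and the inhibitory genes Slc32a1 and Gad2 were covered in cKO only (2.73%, 1.11%, 2.67% and 0.955%). The endothelial gene Kdr went the other way, at 1.40% in cKO and 4.84% in control, as did the microglial gene P2ry12 (0.320% and 4.89%). Of the pan-neuronal genes Syt1 was also called lower in cKO, at 29.2% and 51.4% (limma adjusted p = 0.0315). The part of the cell types in the members' coverage was not tested.

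**Figure D5:**
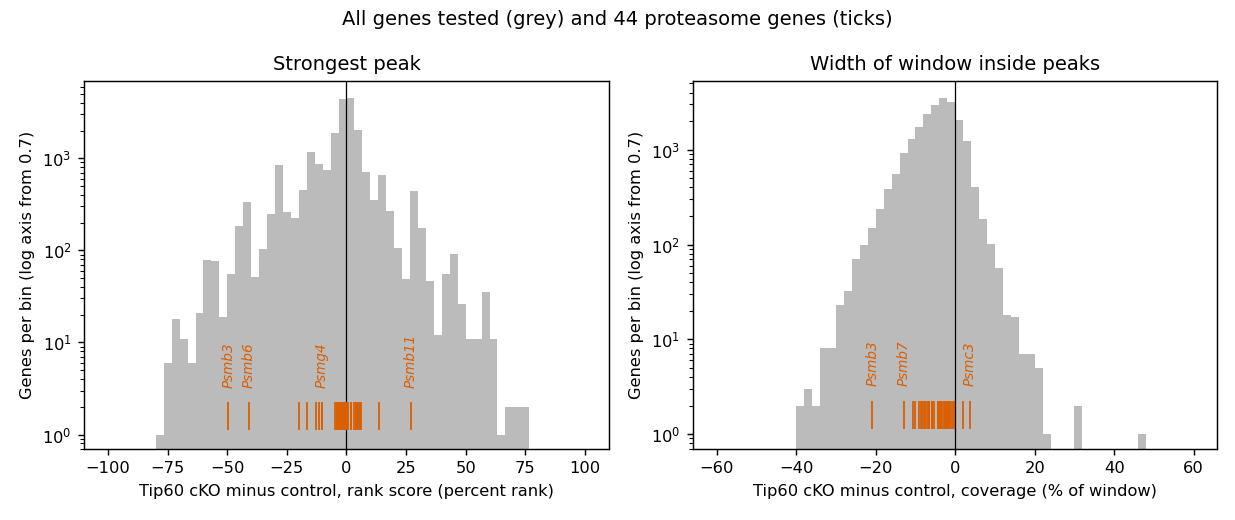
Number of genes (log axis) by the Tip60 cKO minus control difference in rank score (left) and in coverage (right), for all 21672 genes tested (grey), with the 44 tested proteasome genes as ticks. The rank score ticks lie on both sides of 0 and the coverage ticks lie below 0 for 42 of 44, within the grey distribution that is itself shifted to the left.

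In limma, 2 of 44 members passed the adjusted threshold for lower coverage in cKO, both beta ring genes, beside 1.53% of all genes tested. None passed in the other direction (0.0369%), where no member had an unadjusted p under 0.05. In the lower direction 8 of 44 (18.2%) had one, beside 23.2% of all genes tested and 26.2% of autosomal protein-coding genes in either direction. At Psmb3, a structural subunit (chr11:97703399-97713500, plus strand), peaks covered 24.0, 26.9, 21.0, 19.2 and 33.02% of the window in control and 6.10, 0, 13.7, 0 and 0% in cKO. The groups did not overlap, and 3 cKO libraries had no peak within 2 kb. The difference was -20.9 ± 3.52 percentage points (SE; adjusted p = 0.0213). Each control library held a peak that began between -788 and -684 bp and ended between -450 and -261 bp from the start, and in cKO only replicate 3 had one there, from -702 to -452 bp. Control replicates 2 to 5 and cKO replicate 1 held a peak that began 96 to 169 bp downstream. The rank score was 84.1, 92.7, 80.5, 69.8 and 82.7 in control and 83.6, 0, 78.1, 0 and 0 in cKO. It differed by -49.6 ± 18.9 (SE; limma adjusted p = 0.347), with a cKO SD of 44.3. The 2 cKO libraries with a peak had scores within the control range.

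At Psmb7, the trypsin-like subunit (chr2:38588036-38644087, minus strand), coverage was 30.8, 36.3, 37.9, 31.99 and 30.9% in control and 26.02, 17.7, 23.9, 21.1 and 14.3% in cKO. The difference was -13.0 ± 2.80 percentage points (SE; limma adjusted p = 0.0461), and the groups did not overlap. Its rank score differed by only -1.32 (limma adjusted p = 0.906), and there the groups overlapped. Neither call held in all settings: with every list reduced to an equal number of peaks the differences were -9.98 (adjusted p = 0.169) for Psmb3 and -8.31 (adjusted p = 0.246) for Psmb7 in limma, and neither gene was called when cKO replicate 2 or 4 or control replicate 1, 2 or 5 was left out (adjusted p = 0.0544 to 0.0601 for Psmb3). Psmb7 was also not called without cKO replicate 3 or 5 or control replicate 3, and its adjusted p over all libraries left out ran from 0.0241 to 0.109. The differences themselves stayed between -23.3 and -18.8 for Psmb3 and between -14.3 and -11.4 for Psmb7.

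Coverage also did not overlap for Psmb2, a structural beta subunit, and Psmd7, the lid subunit that pairs with the deubiquitinase, which made 4 of 44 members beside 5.23% of all genes tested. Psmb2 had 20.8, 21.2, 20.04, 19.1 and 23.9% in control and 19.1, 8.20, 18.7, 14.1 and 15.6% in cKO (difference -5.87, limma adjusted p = 0.191). Its nearest libraries, control replicate 4 and cKO replicate 1, differed by less than 0.1 percentage points. Psmd7 had 21.2, 31.4, 22.9, 26.04 and 26.2% in control and 20.8, 11.7, 17.8, 18.3 and 17.2% in cKO (difference -8.40, limma adjusted p = 0.103). No member had coverage that was higher in cKO without overlap (0.157% of all genes tested). The assembly chaperone Psmg1 had 14.8, 18.6, 20.5, 13.8 and 14.2% in control and 14.6, 9.05, 5.32, 6.82 and 0% in cKO (difference -9.22, limma adjusted p = 0.105). The 2 members with higher mean coverage in cKO were Psmc3, at a difference of 3.67 with no peak in control replicate 4, and Psmb11, at 2.004 with no peak in any control.

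Peak presence itself varied for 11 members, which had a peak in 1 to 9 of the 10 lists. Of autosomal protein-coding genes, 46.2% had a peak in all 10 lists, 32.8% in none and the rest in 1 to 9. Psmb6 had a peak in 4 of 5 controls and in cKO replicate 5 only, where its rank score of 84.7 was above all controls. Psmc5, Psmd8 and Psmg1 each had a peak in all but cKO replicate 5, and Psmc3 and Psmd9 lacked one in control replicate 4, so that the library with the fewest tags of its genotype was the one without a peak. Psmd9 also lacked one in cKO replicate 5. Other members varied in deeper libraries too. Psmb3 lacked a peak in cKO replicates 2, 4 and 5, and Psmb9 in cKO replicates 2 and 5 and control replicate 4. Psmb8 had one in cKO replicates 3 and 5 and control replicates 2 and 3 only. The number of members with a peak was 42, 40, 42, 40 and 37 in cKO and 42, 43, 43, 39 and 42 in control.

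Of 32 further genes of the pathway, listed for proteasome partners and assembly factors, ubiquitin genes, shuttle factors and transcriptional control, 30 were found on autosomes and 29 were tested. None passed the limma threshold in either direction, for rank score or coverage, and 5 (17.2%) and 9 (31.03%) had an unadjusted p under 0.05, beside 11.8% and 23.2% of all genes tested. Rank scores were lower in cKO for 16 and higher for 13, with a median difference of -0.02, and coverage was lower for 27 and higher for 2, with a median difference of -5.71. Nfe2l1, which encodes the factor that raises proteasome genes when proteolysis is blocked, had a peak in all 10 lists and scored 88.8 in cKO and 91.7 in control by rank (limma adjusted p = 0.791), with a coverage of 24.2% and 35.1% (limma adjusted p = 0.245). By rank score, Pomp, which matures the core, was at 84.8 in cKO and 93.02 in control without overlap (limma adjusted p = 0.170), Ubb, a ubiquitin gene, at 93.8 and 89.8 without overlap (limma adjusted p = 0.432), and Stub1, a ubiquitin ligase, at 79.4 and 91.9 with overlap (limma adjusted p = 0.194). These 3 were chosen after their values were seen.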

How the data were processed

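H4K12ac ChIP-Seq of hippocampal neuronal nuclei was analysed from 10 peak lists, 5 per genotype. The authors aligned reads to mm10 with STAR, dropped duplicate reads (SAMtools) and ran MACS 2.1.0.20140616 on each library separately against the pooled input of the same genotype at q 0.1. The deposited lists give each peak's pileup (a coverage signal in tags), its fold enrichment over local background (a ratio) and the −log10 of its p-value and q-value. No read counts were used here, so depth acts on which peaks were called.

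Peaks were assigned to the 5′ end of 55413 GENCODE genes (2 kb on either side, 1 base of overlap). Rank scores and coverage were compared with limma 3.58.1 in R 4.3.3 (no covariates, Benjamini-Hochberg over 21672 genes). The fit was run on simulated rank scores, and coverage was not simulated. SE are limma's. Local background was recovered from fold enrichment and pileup. The members and gene lists were chosen with earlier results of these data known. Named were members past the threshold, without overlap, with the 3 smallest p in each direction, highest or lowest in their role, or with a peak in fewer than 10 lists, and Psmc3ip. The labels do not say that replicates of a genotype came from separate animals, so p-values measure only the spread between these samples. Alternatives were other peak sets, windows, filters, priors, the lane in the file names, the replicate number as a block, and each library left out. Promoters came from RefSeq (GRCm38.p6). Labels give C57BL/6J males, and the study's methods another substrain and either sex.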

Additional observations from a re-analysis of the deposited data

Results flagged for a closer look

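Of 24 groups of 5 values checked for a library far from the others, 3 were set apart, where chance gives about 1.2. The rank score of Psmb10 in control replicate 4 was 97.9, beside 93.8 in the nearest control. The rank score of Psmc1 in cKO replicate 4 was 90.7, beside 88.4 in the nearest cKO library. The mean rank score of the 49 genes in control replicate 4 was 67.6, beside 73.1 in the nearest control library, and that library had the fewest tags of its genotype.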

How the results depend on the processing

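Rank scores. Against 51 genes called over all genes tested, limma called 235 with ranks among marked windows only, 231 with a peak required in all 10 lists, 86 with a trended robust prior, 232 in lane 7 only, 931 in lane 8 only, and 56 to 97 with 1 library left out. Members called were 0, and 1 in 6 of 25 alternatives: Psmg4 with ranks among marked windows (adjusted p = 0.0145), with a peak in all 10 lists (0.0230), on log2 relative fold enrichment (difference -0.47, 0.0475) and without cKO replicate 4 (0.0409, so 0 to 1 over single libraries), Psmb6 in lane 7 only and Psmb3 in lane 8 only (0.0410). Over its 25 alternatives the adjusted p of Psmg4 ran from 0.0145 to 0.705. Psmc1 turned to -1.14 when ranked by pileup. The share of tested members that were lower stayed between 47.1 and 61.8%. The members' mean control rank score was 47.9 with ranks among marked windows, where the scale starts at the weakest peak, and 78.6 with any transcript start. Coverage. Against 339 calls, there were 522 with the same number of peaks per library, 653 with lane as a covariate, 0 in lane 7 only and 0 in lane 8 only (3088 and 2775 at an unadjusted p under 0.05), and 38 to 1388 with 1 library left out (without control replicate 5 and cKO replicate 1). Of the members' 2 calls, 0 were left with equal peak numbers and either lane alone, 0 with a peak in all 10 lists (where Psmb3 was not tested and Psmb7 had 0.0522), 1 with the summit in the window (Psmb3), any transcript start (Psmb7) and the robust prior (Psmb3), and 0 to 3 with 1 library left out, Psmg1 being the addition. The share of tested members lower in coverage stayed between 79.5 and 100%. Over the alternatives the adjusted p ran from 0.0175 to 0.377 for Psmb3 and from 0.0241 to 0.377 for Psmb7. The cause of these shifts was not tested.

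With the replicate number as a block, coverage calls fell to 0 and member calls to 0 (4507 genes at an unadjusted p under 0.05, adjusted p = 0.09996 for Psmb3 and 0.105 for Psmb7). Rank score calls numbered 35 with that block. In rank score, same-numbered libraries deviated from their group means with correlations of -0.0375 to 0.0553. Coverage was not examined in this way. These correlations cannot decide whether the numbers pair the samples, since a pairing need not show in rank scores. Depth limits these lists: a window without a peak may hold acetylation below the threshold of a shallow library. The lane fits rest on 3 and 2 libraries a genotype, and gave calls by rank score but not by coverage. An absent call there says little, and its cause was not tested.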
